A study of Mus musculus with 16 samples.

Results

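Nucleolar ribosome biogenesis factors are the proteins that transcribe, fold, cut and modify ribosomal RNA in the nucleolus. The 56 genes described here were a fixed list of names, each of which matched 1 of the 54532 genes in the deposited count table. The rule for membership used names and no measured value, but the list was chosen with earlier results of these data known. They were followed by RNA-seq in mouse C57BL/6J CD8+ T cells that had been isolated naive from spleen and differentiated over 4 days into antigen-experienced TCF1+CD8+ T cells by repeated activation in culture. TCF1 marks T cells that keep stem-like properties. The question of the study was how prostaglandin E2 (PGE2), a lipid that many tumours release, changes such cells.

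Cells were first kept for 1 h with PGE2 at 100 ng/ml or without it. All of them then received low-dose IL-2 (85 U/ml) for 4 h, either alone, which is called unstimulated here, or together with beads coated with anti-CD3 and anti-CD28, added at 1 bead for each cell, which is called stimulated. The 4 groups were therefore unstimulated untreated, unstimulated PGE2, stimulated untreated and stimulated PGE2, with 4 replicates each. The unstimulated groups were not without signal, because they held IL-2 and had been activated with the same kind of beads during differentiation. The cells were cultured and not taken from tumours. Which mice or cultures the replicates came from was not given in the sources used here, so the p-values below measure the spread between these samples, which may be technical.

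RNA polymerase I makes 1 long precursor transcript in the nucleolus, and early factors load onto it while it is still being made. Small nucleolar RNPs (snoRNPs) modify and cleave the precursor, after which separate sets of factors mature the small and the large ribosomal subunit. Resting T cells make few ribosomes, and activation through the T cell receptor is known to raise their production strongly before the first division, with the transcription factor MYC among the regulators.

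A sequence feature was looked up first, because E-boxes with the letters CACGTG are the motif that MYC and its partner MAX are known to bind. Windows from 250 bases before to 50 bases after the RefSeq start site (GRCm38.p6) were at hand for 50 of the 56 members, and Rrs1, Bop1, Fbl, Npm1, Rrp12 and Utp6 were not matched. CACGTG, which reads the same on both strands, stood in the windows of 12 of the 50 members (24%), against 8.09% of 27025 genes with a window and 11.7% of the 10091 of them tested in the fit of all samples. The stretches of 30 bases below show 11 such sites in 10 of these members, with the E-box in capitals, to let a reader compare the flanks. Those of Grwd1 and Utp20 lie too close to the end of the window. The Rrn3 sites begin 215 and 48 bases before the start, those of Imp4, Nop2 and Utp18 at 121, 60 and 20 bases before it, and the others after it.
Imp4, chr1:34439696-34439725, plus strand: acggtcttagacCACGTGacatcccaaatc
Ltv1, chr10:13193092-13193121, minus strand: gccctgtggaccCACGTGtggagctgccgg
Nle1, chr11:82908355-82908384, minus strand: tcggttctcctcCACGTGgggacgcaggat
Nop2, chr6:125131811-125131840, plus strand: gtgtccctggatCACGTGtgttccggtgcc
Pes1, chr11:3963965-3963994, plus strand: ccctaggcagggCACGTGcgggaggaagta
Rrn3, chr16:13780472-13780501, plus strand: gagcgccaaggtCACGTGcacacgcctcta
Rrn3, chr16:13780639-13780668, plus strand: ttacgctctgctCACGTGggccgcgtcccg
Tsr1, chr11:74898092-74898121, plus strand: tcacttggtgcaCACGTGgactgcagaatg
Utp18, chr11:93885769-93885798, minus strand: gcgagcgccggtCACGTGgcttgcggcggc
Utp4, chr8:106893643-106893672, plus strand: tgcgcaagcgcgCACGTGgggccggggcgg
Wdr43, chr17:71616220-71616249, plus strand: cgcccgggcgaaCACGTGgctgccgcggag

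Of 8 motifs searched on both strands, the letters GGAAGT, a core that ETS factors are known to bind, were in 66% of the members against 32.8% of the tested genes. GGGCGG, a GC box, stood in 74% of the members and 67.4% of the tested genes, and CCAAT in 40% and 42.9%. CACGCG stood in 26% and 19.8%, CATGTG in 20% and 10.6%, TATAAA in 4% and 8.44%, and TCTCGCGAGA in none of the 50 members and 1.13% of the tested genes. The sequences below are the 120 bases before the start sites of Polr1b and Polr1c, a pair of RNA polymerase I subunits that lay at opposite ends of the PGE2 effects described later, with GGGCGG and GGAAGT in either orientation in capitals.
Polr1b, chr2:129100876-129100995, plus strand: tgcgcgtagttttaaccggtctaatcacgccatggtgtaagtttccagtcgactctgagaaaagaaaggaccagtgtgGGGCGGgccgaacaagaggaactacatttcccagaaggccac
Polr1c, chr17:46248046-46248165, minus strand: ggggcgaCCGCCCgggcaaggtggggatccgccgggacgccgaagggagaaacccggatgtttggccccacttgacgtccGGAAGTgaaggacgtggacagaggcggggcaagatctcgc

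Polr1b held a GC box and Polr1c held a GC box and GGAAGT in these stretches. In unstimulated cells the median PGE2 effect was -0.89 on the log2 scale over the 12 members with CACGTG and -0.79 over the 37 tested members whose window lacked it, and both sets spanned wide ranges (-1.60 to -0.37 and -1.74 to 0.00). These matches describe letters only and show no binding.

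Total counts per sample were between 22678254 and 42950763, with a median of 30211840.5. All 9 markers of CD8 T cells were detected, with a summed level of 3626 to 5808 CPM (counts scaled to library size) per sample. This sum differed between groups. It was 4643 to 5808 CPM in unstimulated untreated and 4064 to 5071 CPM in unstimulated PGE2 samples. In stimulated untreated and stimulated PGE2 samples it was 3950 to 4177 and 3626 to 3852 CPM. Tcf7, the gene of TCF1, ranged from 289 to 1540 CPM over the 16 samples. Markers of B, myeloid and erythroid cells summed to at most 22.2, 6.92 and 1.29 CPM, and those of CD4 T cells to at most 40.6 CPM. The sum of the NK list was 199.7 to 242 CPM in unstimulated untreated, 110 to 119 CPM in unstimulated PGE2, 423 to 578 CPM in stimulated untreated and 229 to 372 CPM in stimulated PGE2 samples, so it moved with both conditions, and its part in the results was not tested. It came from Nkg7 and Eomes, which CD8 T cells express too, while the NK receptors Ncr1 and Klra8 had no count in any of the 16 samples. No pair of replicates within a group agreed within counting noise, the chi-square per degree of freedom being at least 8.46. Samples with the same replicate number deviated together from their group means, less clearly so between unstimulated PGE2 and either stimulated group. In bulk RNA, fewer cells of a type and less RNA per cell cannot be told apart, and all levels are shares of the mRNA of a sample.

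Levels per gene length, as the deposited FPKM, differed widely among the members. For most members this length was that of all annotated exons together, which can exceed the length of a transcript. The ranking depends on it, since Ncl had more counts than Npm1 in total (971654 against 801746). The length of Ncl was 10188 bases and that of Npm1 2665 bases. Npm1, which encodes nucleophosmin, was the highest, with a mean over all samples of 600 FPKM, followed by Ncl (nucleolin) at 193 FPKM and Nhp2 at 143 FPKM. By this measure the lowest members with appreciable counts were Wdr12 at 6.51 FPKM (length 11955 bases) and Dimt1 at 7.79 FPKM (3851 bases). Wdr74, a large subunit factor, had 0 to 2 counts per sample and 17 in total (mean 0.0276 FPKM), so it failed the filter on low counts in every fit and is left out of all counts below. On the same strand of chr19 the annotation also lists the protein-coding gene Gm45736 (8735841 to 8741223, GRCm38), which covers 99.7% of the span of Wdr74 and had 1 count. The part of this overlap in the low value was not tested. The other 55 members passed the filter in all comparisons.

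The tested members were lowest in the unstimulated PGE2 group, higher in the unstimulated untreated group and highest in the stimulated groups. Relative to the mean of each member over the 16 samples, the median member lay between -1.56 and -1.32 on the log2 scale in the unstimulated PGE2 samples and between -0.65 and -0.43 in the unstimulated untreated samples. It lay between 0.94 and 1.42 in the stimulated untreated samples and between 0.37 and 1.19 in the stimulated PGE2 samples. The unstimulated groups were thus apart from each other and from the stimulated groups, whereas the stimulated groups overlapped. The median of all 15096 genes stayed between -0.05 and 0.04 in every sample.

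**Figure D1:**
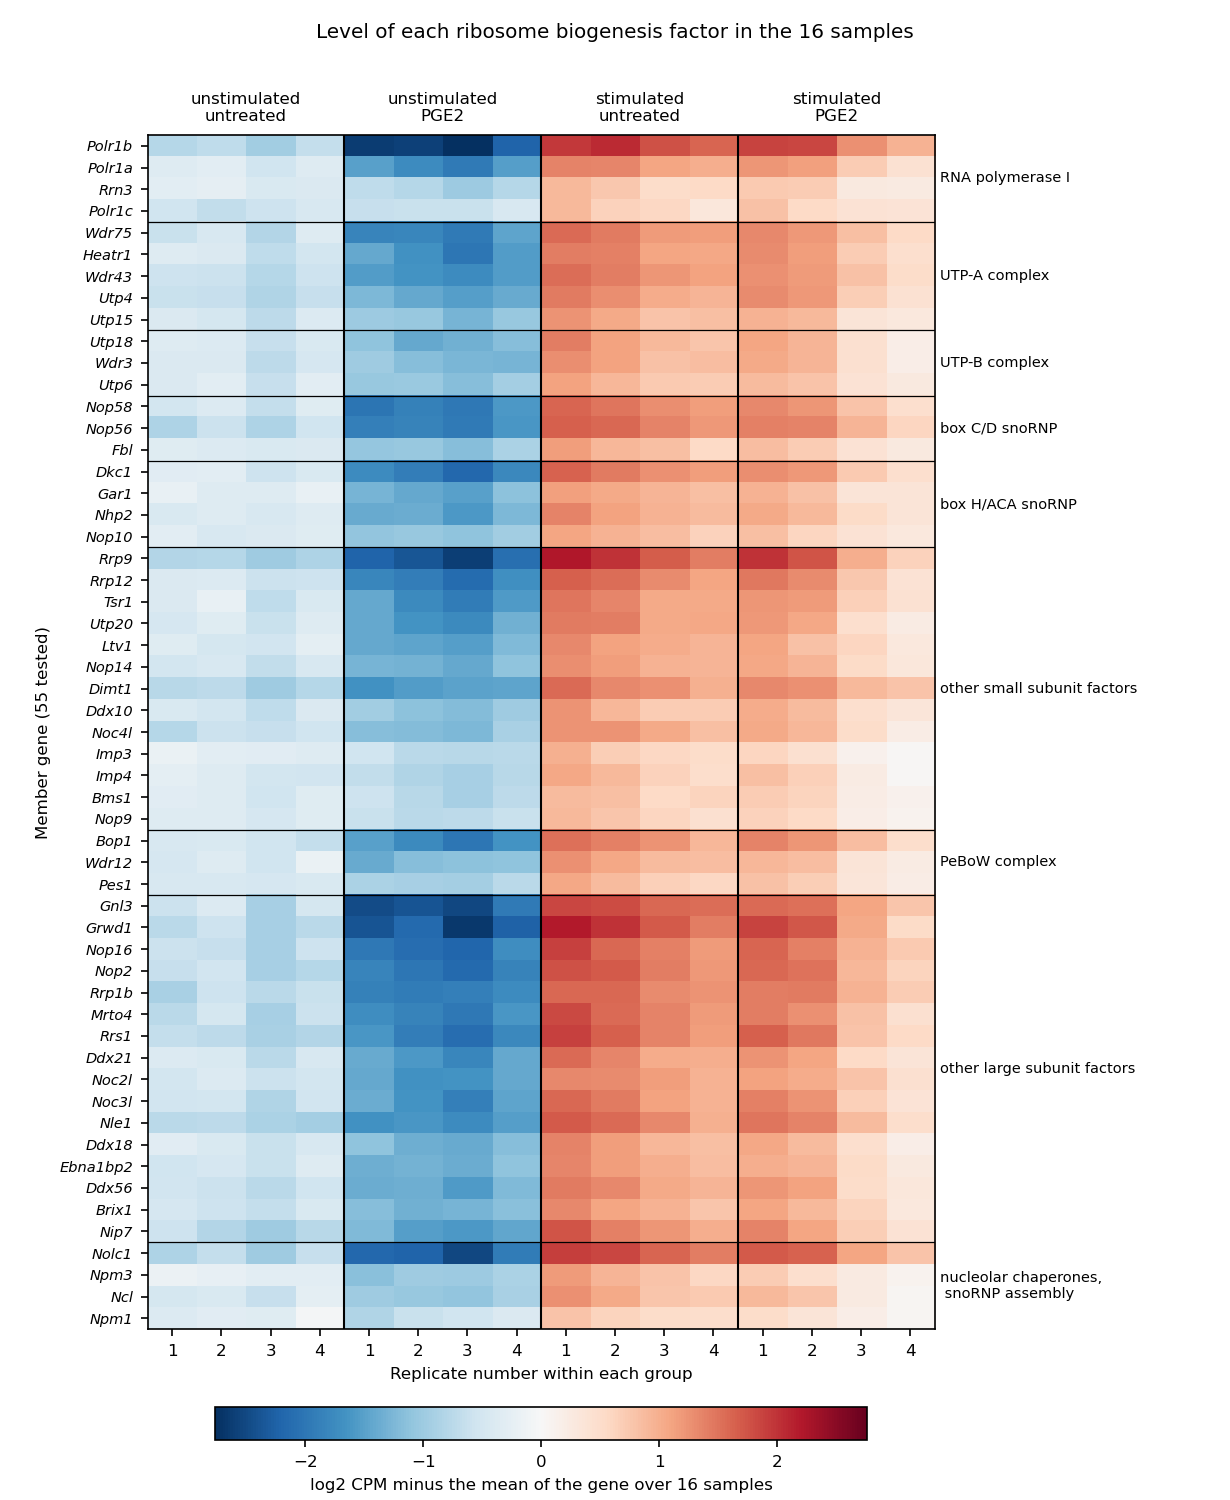
Heat map of 55 ribosome biogenesis factors (rows, grouped by role) in 16 samples (columns, replicates 1 to 4 of each group), with colour giving log2 CPM minus the mean of the gene over all samples. Unstimulated PGE2 samples are the lowest (blue) for nearly all genes, Polr1c being the clearest exception, and within the stimulated groups replicates 1 and 2 are higher than 3 and 4.

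In unstimulated cells PGE2 lowered nearly the whole set. Of the 55 members tested, 54 fell (adjusted p below 0.05, edgeR quasi-likelihood test), none rose, and Polr1c was the member that did not pass. Over all 14505 genes tested, 15.5% were called lower. The median log2 fold change was -0.80 over the members and 0.00 over all genes. With a fold change of at least 2 also asked for, 23 members were lower, against 1.92% of all genes. For 54 members every PGE2 sample lay below every untreated sample (16.8% of all genes), and 54 were lower in all 4 same-numbered pairs (30.6%). The falls ranged from -0.27 for Nop9 to -1.74 for Polr1b.

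The factors of RNA polymerase I held both ends of this range. Polr1b, which encodes the second-largest subunit (chr2:129100995-129126594, plus strand), had 41.1, 43.8, 36.4 and 45.1 CPM in untreated replicates 1 to 4 and 11.5, 11.9, 10.4 and 15.2 CPM after PGE2. These groups were far apart, and Polr1b had the deepest fall of the set (log2 fold change -1.74 ± 0.12 (SE), adjusted p = 4.74e-06, edgeR quasi-likelihood test, as for all adjusted p-values below). Polr1a, the gene of the largest subunit, went from 71.6, 74.7, 63.1 and 72.3 CPM to 32.5, 27.4, 23.5 and 32.05 CPM, a log2 fold change of -1.27 ± 0.094 (adjusted p = 5.90e-06). Rrn3, an initiation factor that recruits the polymerase to rDNA, changed by -0.46 ± 0.067 (adjusted p = 4.36e-04). Polr1c, a subunit that RNA polymerases I and III share (chr17:46243920-46248054, minus strand), had 57.8, 52.9, 56.5 and 62.1 CPM without and 54.2, 55.3, 55.1 and 61.8 CPM with PGE2. Its groups overlapped fully, with a log2 fold change of 0.00 ± 0.068 (adjusted p = 0.982).

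**Figure D2:**
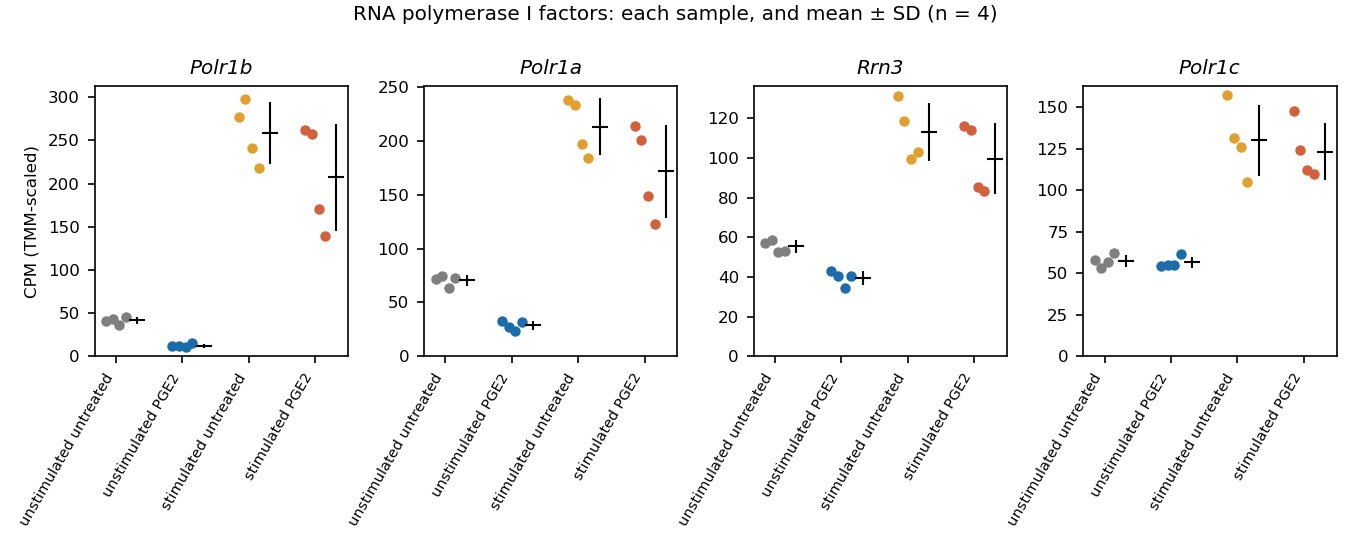
Level of the 4 RNA polymerase I factors in CPM (points, single samples in the order of replicates 1 to 4; bars, mean ± SD, n = 4; each axis starts at 0 and has its own scale). Polr1b lies at 36.4 to 45.1 CPM in unstimulated untreated and 10.4 to 15.2 CPM in unstimulated PGE2 samples, while the same groups of Polr1c overlap at 52.9 to 62.1 CPM.

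The early small-subunit complexes fell throughout. All 5 members of UTP-A, the complex that meets the nascent transcript first, were lower, from -0.58 for Utp15 to -1.18 for Wdr75, with Heatr1 at -1.14. The 3 members of UTP-B lay close together, from -0.63 for Utp6 to -0.79 for Utp18.

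Within the snoRNPs the core proteins differed in size of effect. In the box C/D particle, which guides methylation of rRNA, the scaffold genes Nop58 and Nop56 fell by 1.36 and 1.10 on the log2 scale and the methyltransferase gene Fbl by 0.63. Nop58 had 159, 174, 143 and 177 CPM in untreated and 55.4, 61.9, 57.1 and 75.4 CPM in PGE2 replicates 1 to 4. In the box H/ACA particle, which guides pseudouridylation, the synthase gene Dkc1 (chrX:75095854-75109777, plus strand) had 124, 126, 103 and 115 CPM in untreated and 46.1, 40.8, 33.9 and 44.6 CPM in PGE2 replicates. In both genes the highest PGE2 sample lay far below the lowest untreated one. The log2 fold change of Dkc1 was -1.48 ± 0.091 (adjusted p = 2.98e-06), against -1.03 for Gar1, -0.98 for Nhp2 and -0.66 for Nop10.

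Among the 13 other small subunit factors, all of which fell, the median was -0.70. Rrp9, a protein particular to the U3 snoRNP (chr9:106475963-106485424, plus strand), had 48.3, 48.7, 42.9 and 46.9 CPM without and 18.03, 16.2, 13.8 and 19.8 CPM with PGE2, a log2 fold change of -1.44 ± 0.10 (adjusted p = 4.74e-06). Rrp12 (-1.38), Tsr1 (-1.22) and Utp20 (-1.07) also fell by more than 1. Imp3 and Imp4, which work with the U3 particle as well, fell by 0.39 and 0.37, and the GTPase gene Bms1 by 0.34. Nop9, an RNA-binding factor, had 65.1, 65.6, 60.3 and 66.5 CPM and 54.9, 49.9, 50.5 and 54.7 CPM, which did not overlap despite the small change of -0.27 ± 0.055 (adjusted p = 0.00324). Imp4 and Nop9 each passed in 13 of 14 alternative settings.

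The 16 tested large subunit factors outside PeBoW all fell, with a median of -1.03, next to -1.10 in box C/D. They ran from -0.64 for Nip7 to -1.71 for Gnl3. Gnl3 encodes the GTPase nucleostemin (chr14:31012433-31019152, minus strand) and had 68.9, 80.3, 55.1 and 74.4 CPM in untreated and 18.7, 20.04, 18.1 and 26.7 CPM in PGE2 replicates (log2 fold change -1.71 ± 0.14, adjusted p = 1.13e-05). Grwd1, a chaperone of a large subunit protein (chr7:45825223-45830944, minus strand), had 24.1, 27.1, 21.4 and 23.9 CPM and 7.63, 9.01, 6.31 and 8.48 CPM (log2 fold change -1.60 ± 0.12, adjusted p = 5.90e-06). Both genes fell to about the same ratio, 0.305 and 0.331 of the untreated level, with no overlap of samples. Nop16 (-1.29), the rRNA methyltransferase gene Nop2 (-1.23), Rrp1b (-1.13), Mrto4 (-1.08), Rrs1 (-1.05) and the helicase gene Ddx21 (-1.04) followed. In the PeBoW complex, which is needed for maturation of large subunit rRNA, Bop1 fell by 1.18, Wdr12 by 0.79 and Pes1 by 0.41.

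The 4 nucleolar chaperones also fell, to different extents. Nolc1, a snoRNP chaperone (chr19:46075863-46085530, plus strand), had 116, 133, 106 and 134 CPM without and 46.7, 45.01, 36.7 and 54.6 CPM with PGE2 (log2 fold change -1.40 ± 0.11, adjusted p = 1.01e-05). Npm3 fell by 0.73 and Ncl by 0.53. Npm1 had 1225, 1267, 1258 and 1517 CPM in untreated and 895, 1027, 1082 and 1195 CPM in PGE2 replicates. Npm1 fell by the least of the group, with a log2 fold change of -0.30 ± 0.10 (adjusted p = 0.0463). Its highest PGE2 sample and its lowest untreated sample were close, and it passed in 7 of 14 alternative settings (adjusted p up to 0.122).

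In stimulated cells the PGE2 estimates were small and lay below 0 for all 55 members. None passed the test that left out the replicate numbers, whereas 54 passed with these numbers as a block, as given below. The median log2 fold change was -0.34 over the members and -0.01 over the 13922 genes tested, of which 3.80% were called lower. The members ranged from -0.48 to -0.069, the lowest adjusted p was 0.0690, and 16 members had an unadjusted p below 0.05, all lower, against 12.7% of all genes that were lower at that level. DESeq2 called 2 members lower and 7.01% of all genes. The member median moved between -0.46 (without stimulated PGE2 replicate 1) and -0.20 (without stimulated PGE2 replicate 4) when single samples were left out. No member was without overlap of the groups (8.32% of all genes were lower without overlap), while 54 were lower in all 4 same-numbered pairs (29.0%). When the replicate number was added to the edgeR fit as a block, 54 members were lower and none higher, and 20.7% of all genes were lower. Polr1c was again the exception, at adjusted p = 0.268 with the block.

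Npm3, a histone-binding relative of nucleophosmin (chr19:45747734-45749591, minus strand), had 289, 246, 219 and 189 CPM in untreated and 207, 177, 152 and 136 CPM in PGE2 replicates 1 to 4. Mrto4, a large subunit factor (chr4:139347435-139352576, minus strand), had 197, 166, 144 and 126 CPM and 149, 133, 96.8 and 75.99 CPM. Grwd1 had 185, 161, 130.3 and 108 CPM and 147, 133, 83.6 and 58.7 CPM. In each gene the groups overlapped, replicate 1 was the highest of its group, and every PGE2 sample lay below the untreated sample of its number. These were the 3 largest estimates, with log2 fold changes of -0.48 ± 0.15, -0.47 ± 0.20 and -0.46 ± 0.27 (adjusted p = 0.069, 0.174 and 0.288 without and 1.12e-05, 2.06e-04 and 9.15e-04 with the block). Within pairs, the median member differed by -0.24 in replicate 1, -0.22 in replicate 2, -0.44 in replicate 3 and -0.58 in replicate 4. In unstimulated cells the pair medians lay closer together, between -0.97 and -0.87.

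**Figure D3:**
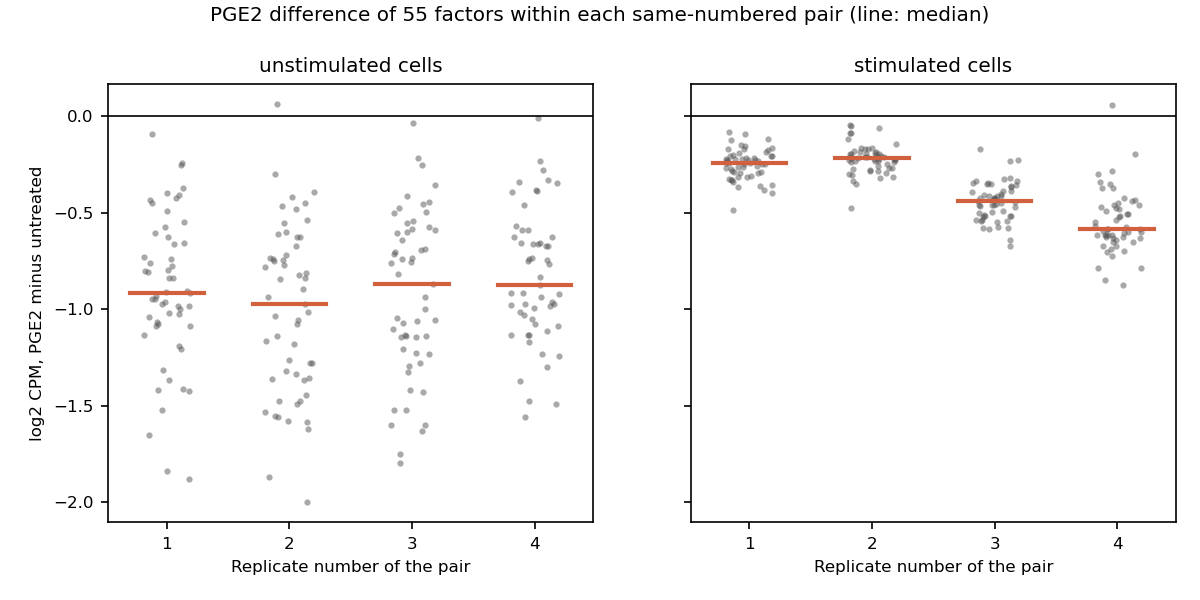
Difference in log2 CPM between the PGE2 and the untreated sample of the same replicate number for each of 55 members (points; red line, median), in unstimulated and stimulated cells. In stimulated cells the medians are -0.24, -0.22, -0.44 and -0.58 in replicates 1 to 4, with all members below 0 in replicates 1 to 3 and 54 of 55 in replicate 4.

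By role, the medians in stimulated cells lay between -0.39 for the nucleolar chaperones and -0.24 for the RNA polymerase I factors. Box H/ACA was tight, from -0.41 for Dkc1 to -0.34 for Gar1, and box C/D ran from -0.40 for Nop58 to -0.29 for Fbl. UTP-A ran from -0.35 for Wdr43 to -0.23 for Utp4, UTP-B from -0.34 for Utp18 to -0.26 for Utp6, and PeBoW from -0.40 for Wdr12 to -0.25 for Bop1. Of the other factors, Utp20 was at -0.45 and the helicase gene Ddx10 at -0.20 in the small subunit set, and Rrp1b at -0.27 was the nearest to 0 in the large subunit set. In RNA polymerase I, Polr1b was at -0.31 and Polr1c at -0.069. None of these passed the test without the block. Across the 55 members the PGE2 effects in the 2 states, which share no sample, had a Pearson r of 0.43 and a Spearman rho of 0.35, against an r of 0.70 over 13571 genes, and 52 members had the lower value in unstimulated cells.

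**Figure D4:**
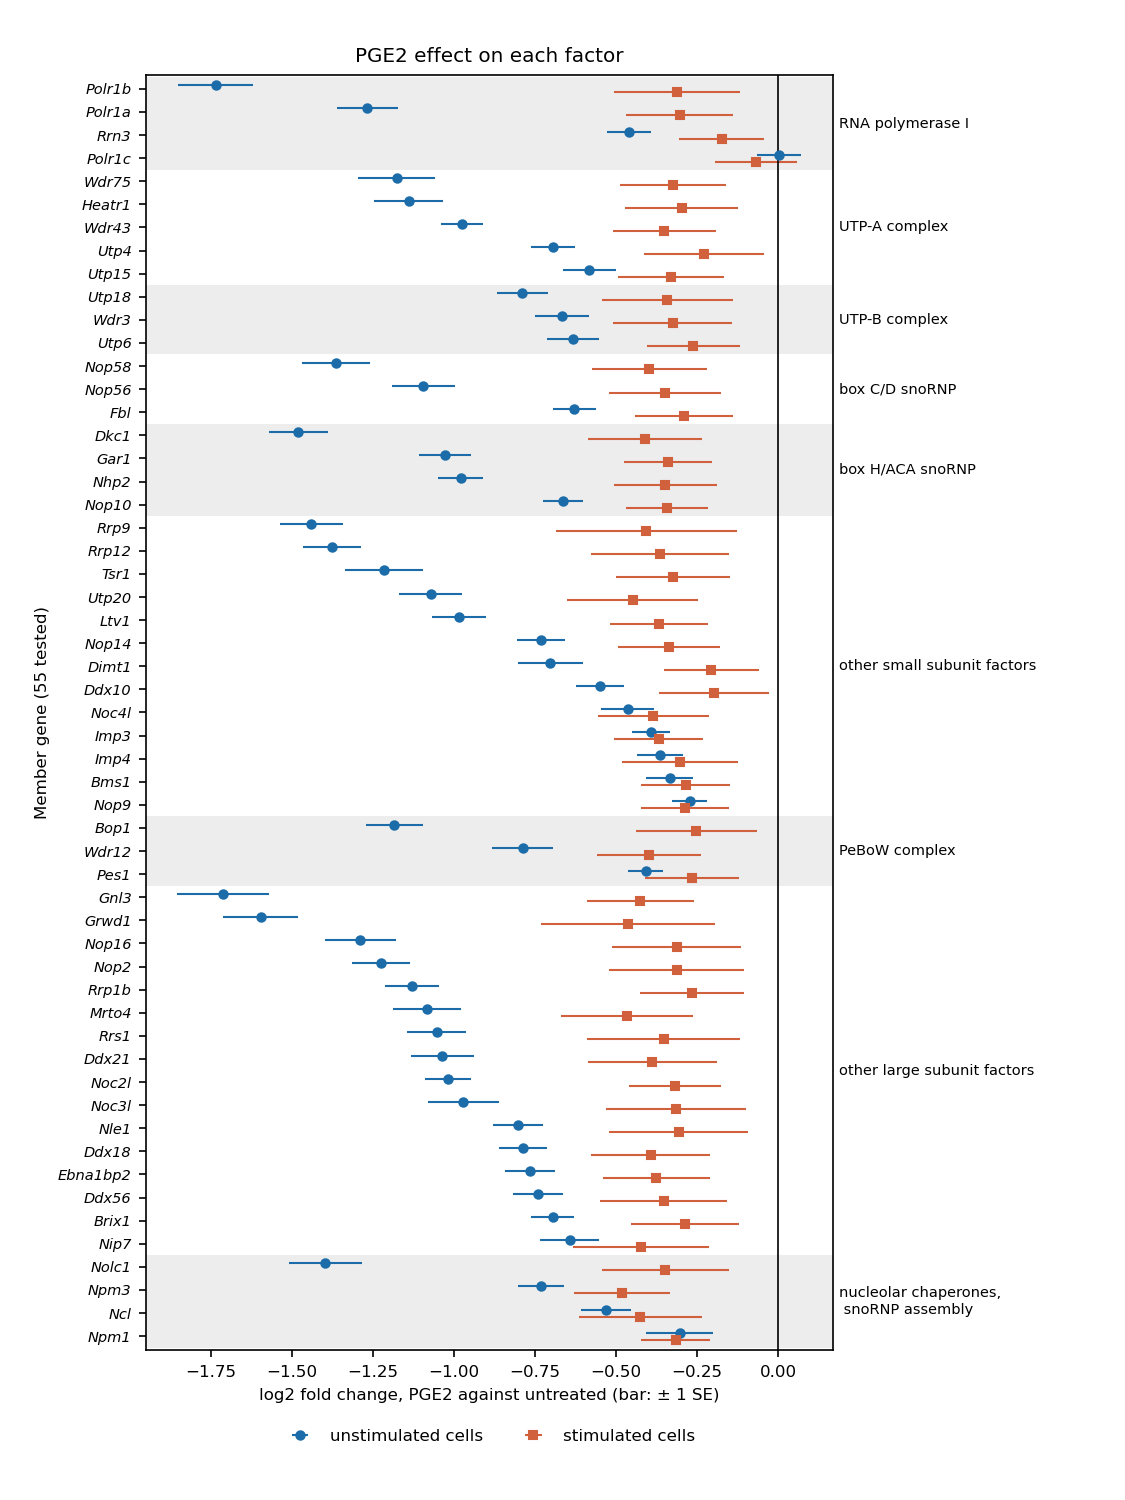
PGE2 effect on 55 members as log2 fold change against untreated cells (points; bars, ± 1 SE derived from the edgeR F value), in unstimulated (blue circles) and stimulated cells (red squares), sorted within roles. Blue points spread from -1.74 (Polr1b) to 0.00 (Polr1c), whereas red points stay between -0.48 and -0.069.

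Bead stimulation raised every tested member in untreated cells. All 55 rose, against 31.7% of the 14205 genes tested, with a median log2 fold change of 1.68 over the members and -0.03 over all genes. At least a 2-fold rise was seen in 53 members (11.5% of all genes). For all 55 the groups did not overlap (30.4% of all genes).

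The 4 largest rises were in Rrp9, Polr1b, Grwd1 and Nolc1. In stimulated untreated replicates 1 to 4, Rrp9 had 395, 338, 272 and 226 CPM and Polr1b 277, 298, 241 and 218 CPM. Against the unstimulated values given above, their log2 fold changes were 2.71 ± 0.16 and 2.63 ± 0.11 (adjusted p = 3.32e-08 and 9.48e-09). Grwd1, with the stimulated values above, rose by 2.59 ± 0.16, and Nolc1, with 793, 756, 637 and 556 CPM, by 2.48 ± 0.13 (adjusted p = 4.37e-08 and 1.74e-08). The smallest rises were in Npm1, at 2748, 2438, 2258 and 2212 CPM (log2 fold change 0.86 ± 0.10, adjusted p = 8.05e-06), and in Imp3 (0.97 ± 0.10, adjusted p = 3.91e-06). Npm1 and Imp3 were the members under a 2-fold rise, and in each the lowest stimulated sample was still above the highest unstimulated one. Npm1 remained the most abundant member per length in every group, with 469.7 ± 47.1 FPKM (SD, n = 4) in unstimulated untreated and 863 ± 105 FPKM in stimulated untreated samples.

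By role, the large subunit factors outside PeBoW had the highest median, 2.14, from 1.53 for the helicase gene Ddx18 to 2.59 for Grwd1. UTP-A had a median of 1.85, from 1.47 for Utp15 to 1.94 for Wdr43, and box C/D also 1.85, from 1.26 for Fbl to 2.16 for Nop56. The medians were 1.59 for the other small subunit factors, 1.51 for UTP-B, where Utp6 was the lowest at 1.26, and 1.40 for PeBoW, from 1.23 for Pes1 to 1.79 for Bop1. RNA polymerase I had 1.38, with Rrn3 the lowest at 1.02, box H/ACA 1.37, from 1.25 for Nop10 to 1.76 for Dkc1, and the chaperones 1.27. Polr1c, whose PGE2 estimate in unstimulated cells was 0.00, rose by 1.17 ± 0.11 (adjusted p = 1.67e-06).

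In PGE2-treated cells stimulation raised the members from a lower start. All 55 rose, against 32.5% of the 14507 genes tested, with a median of 2.34 over the members and 0.00 over all genes. At least a 2-fold rise was seen in 54 members (12.7% of all genes), and in all 55 the groups did not overlap (30.1% of all genes). Polr1b rose to 262, 257, 171 and 139 CPM in replicates 1 to 4, or 17.1-fold (log2 fold change 4.10 ± 0.23, adjusted p = 1.10e-06). Rrp9 rose to 338, 283, 170.4 and 131 CPM, a log2 fold change of 3.79 ± 0.29 (adjusted p = 2.39e-06). In both genes replicates 1 and 2 were clearly higher than 3 and 4, and the lowest stimulated sample still lay far above the highest unstimulated PGE2 sample. Grwd1 followed with 3.77 ± 0.29 (adjusted p = 2.22e-06) and Gnl3, at 309.6, 302, 222 and 177 CPM, with 3.61 ± 0.21 (adjusted p = 1.10e-06). Npm1, at 2239.9, 2025, 1809 and 1636 CPM, again rose least (0.89 ± 0.12, adjusted p = 8.92e-05).

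By role, box C/D had the highest median, 2.86, from 1.64 for Fbl to 2.95 for Nop56, then the large subunit factors with 2.67, where Ddx18 was the lowest at 1.97, and UTP-A with 2.61, from 1.77 for Utp15 to 2.78 for Wdr75. Box H/ACA (2.07), the other small subunit factors (2.03), RNA polymerase I (1.97), UTP-B (1.90), PeBoW (1.84) and the chaperones (1.49) followed. Within these roles Dkc1 (2.87), Nop10 (1.61), Imp3 (1.04), Polr1c (1.14), Utp18 (2.00), Utp6 (1.68), Bop1 (2.76), Pes1 (1.41) and Nolc1 (3.57) marked the ends. The responses with and without PGE2, which share no sample, had a Pearson r of 0.95 and a Spearman rho of 0.95 over the 55 members, and an r of 0.94 over 13999 genes. The likeness was thus shared by the whole table. The response with PGE2 was the larger for 54 of 55 members and for 9491 of the 13999 genes.

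**Figure D5:**
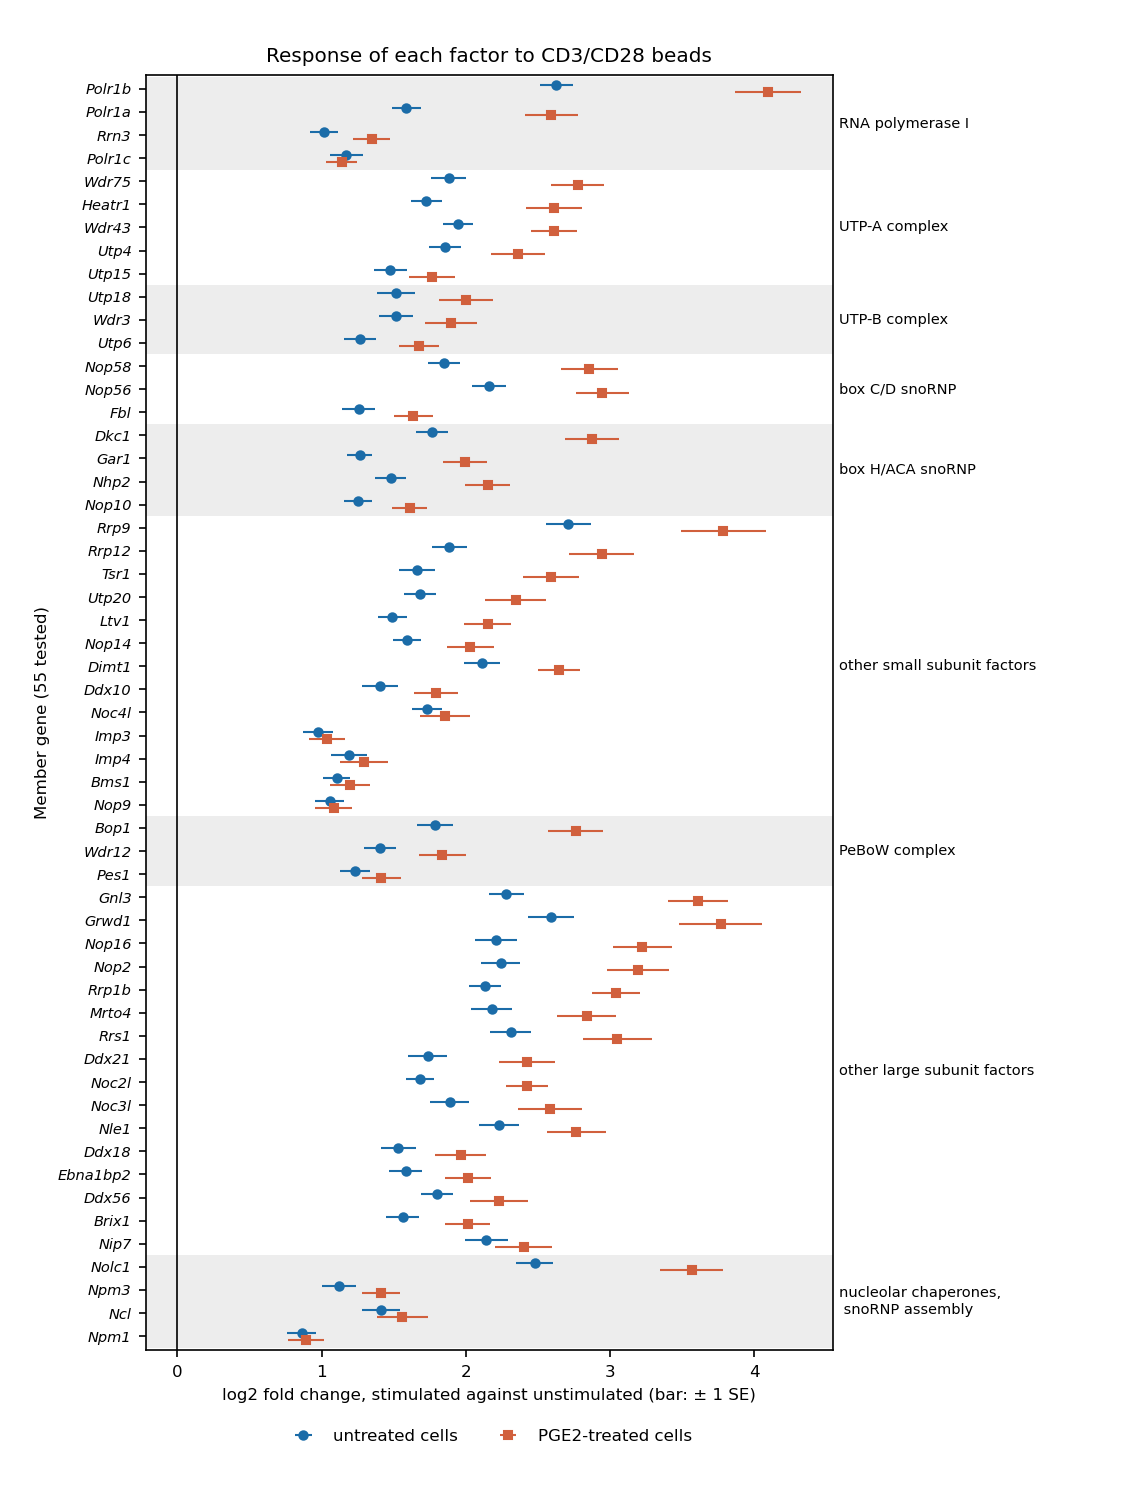
Response of 55 members to CD3/CD28 beads as log2 fold change against unstimulated cells (points; bars, ± 1 SE derived from the edgeR F value), without PGE2 (blue circles) and with PGE2 (red squares). All points lie above 0, and the gap between the colours is widest for Polr1b (2.63 and 4.10) and absent for Npm1 (0.86 and 0.89).

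Whether the PGE2 effect differed between the states was tested by the interaction term, the effect in stimulated minus that in unstimulated cells. It was positive for 53 members, with a median of 0.51 over the members and 0.05 over all 15096 genes. Past the threshold were 6 members, all positive, against 0.517% of all genes, and 3 of them had an interaction of at least 1 (0.152%). They were Polr1b (1.44 ± 0.25, adjusted p = 0.00955), Gnl3 (1.30 ± 0.23, adjusted p = 0.0129), Dkc1 (1.08 ± 0.22, adjusted p = 0.0264), Polr1a (0.97 ± 0.21, adjusted p = 0.0385), Rrp1b (0.88 ± 0.19, adjusted p = 0.0433) and Nop58 (0.98 ± 0.22, adjusted p = 0.0479). In stimulated cells Gnl3 had 378, 365, 317 and 306 CPM without PGE2, which overlapped its values with PGE2 given above. At the other end were Polr1c (-0.059 ± 0.15, adjusted p = 0.973) and Nop9 (0.00 ± 0.16, adjusted p = 1.00), whose values in stimulated untreated samples were 157, 132, 126 and 105 CPM and 155, 143, 127 and 114 CPM, and in stimulated PGE2 samples 148, 124, 112 and 109 CPM and 131, 123, 95.4 and 89.5 CPM. Grwd1, Nolc1 and Rrp9 had estimates above 1 that did not pass (adjusted p = 0.142, 0.0568 and 0.204). With the replicate number as a block, 20 members passed, all positive, against 1.79% of all genes. Grwd1 and Nolc1 passed in that fit (adjusted p = 0.0203 and 0.0150) and Rrp9 did not (adjusted p = 0.0517). The number of members past the threshold moved between 2 and 22 when single samples were left out, with 22 without stimulated PGE2 replicate 4, 9 without unstimulated PGE2 replicate 4, 6 without stimulated PGE2 replicate 3 and 2 to 4 without any other sample.

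A list of 135 other ribosome biogenesis genes, of which 134 were matched and 133 tested, was followed alongside. In unstimulated cells PGE2 lowered 97 of them and raised 2, with a median of -0.47. The largest falls were in Rrp15, a large subunit factor (-1.49 ± 0.11, adjusted p = 5.63e-06), and Ppan (-1.35 ± 0.090, adjusted p = 4.74e-06), and the rises in the late small subunit kinase genes Riok1 (0.38 ± 0.060, adjusted p = 6.64e-04) and Riok3 (0.14 ± 0.048, adjusted p = 0.044). In stimulated cells none of the 133 fell, against 3.80% of all genes, and Riok1 rose (0.25 ± 0.064, adjusted p = 0.0361). An unadjusted p below 0.05 in either direction was seen for 23, a smaller share than the 27.0% of all genes. Of these 23, 21 were lower, and 12.7% of all genes were lower at that level. The estimate lay below 0 for 127 of the 133, with a median of -0.24. DESeq2 called 4 lower, against 7.01% of all genes. With the replicate block 106 fell and 4 rose, against 20.7% and 19.1% of all genes. Stimulation raised 117 and lowered 7 without PGE2 (median 1.12), and raised 116 and lowered 6 with PGE2 (median 1.40). The raised shares were 88.0% and 87.2%, against 31.7% and 32.5% of all genes. The lowered shares were 5.26% and 4.51%, against 4944 of 14205 and 4592 of 14507 genes. Ppan (2.92 and 3.91 without and with PGE2) led the rises, followed by Ccdc86 (2.45) without and Rcl1 (3.31) with PGE2. The exosome subunit gene Exosc8 (-0.59 and -0.58) and Ttf1, a termination factor of RNA polymerase I (-0.53 and -0.52), fell the most. By sub-list, in unstimulated cells PGE2 lowered 40 of 52 large subunit factors, 36 of 47 small subunit factors, 6 of 9 snoRNP assembly factors, 8 of 13 exosome and nuclease genes and 7 of 12 further genes of RNA polymerase I. The interaction passed for Nat10 alone, an rRNA acetyltransferase gene (0.93 ± 0.19, adjusted p = 0.0249). This was 0.752% of the list, near the 0.517% of all genes. The interaction estimate was above 0 for 109 of the 133, with a median of 0.23, against 0.05 over all genes. With the replicate block 18 passed, all positive, against 1.79% of all genes.

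Some members share sequence with other genes. The use of strand in counting was not given in the sources used here, so the counts of members that overlap a gene on the opposite strand are uncertain. This concerns Tsr1, with 32.3% of its exon bases shared with Srr, Dimt1, with 31.9% shared with Kif2a, whose own count was 322% of that of Dimt1, Nop9, with 29.9% shared with Cideb, Noc2l, with 20.9% shared with Samd11, and Wdr3, with 15.7% shared with Spag17. Processed pseudogenes named after Mrto4 held 6.28% as many counts as the gene itself, and those of other members less than 1%. Inside 7 members, Nop56, Nop58, Dkc1, Ncl, Wdr43, Tsr1 and Gnl3, the annotation places 21 snoRNA genes, of which 10 had no count and the highest had 809 over all samples. The libraries were poly(A)-selected.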

How the data were processed

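The authors made poly(A)-selected libraries of total RNA, aligned the reads to GRCm38 (HISAT2 2.0.5) and deposited raw read counts per gene (featureCounts 1.5.0-p3), as given in the paper's methods and the submitters' processing notes, which also name DESeq2 1.20.0. Deposited FPKM values are these counts per gene length and library size, and were used to compare levels between genes. The group means of Npm1 in FPKM are given beside this and lack the TMM scaling of the CPM values. The annotation release and the use of strand are not given in the sources used here. No sample or column was left out.

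From the counts of 16 samples, edgeR 4.0.16 in R 4.3.3 was used (filterByExpr with a minimum count of 10, TMM, glmQLFit, glmQLFTest, two-sided, Benjamini-Hochberg adjustment over all genes tested, threshold 0.05). Pairwise fits held 8 samples without covariates, and the interaction fit held all 16. The SE of an edgeR estimate was derived as its absolute log2 value divided by the square root of the quasi-likelihood F value. CPM values were scaled by TMM factors over all 16 samples, so their ratios can differ slightly from the fitted folds. Total counts of at least 22678254 kept counting error low for members with high counts, which leaves out Wdr74. For members with few counts or a narrow spread it was not small beside the replicate spread. Dimt1, for example, had 202 to 327 counts in unstimulated PGE2 samples, at 7.85 ± 0.56 CPM (SD, n = 4). The code recovered known fold changes in simulated counts. Alternatives were RLE and upper-quartile factors, no filter, DESeq2 1.42.0, the replicate block, a 2-fold threshold, a joint fit of the 16 samples, and omission of single replicates.

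The replicate numbers come from the labels. Deviations from the group means of same-numbered samples correlated at 0.29 to 0.50 between the stimulated groups, 0.15 to 0.48 between the unstimulated groups and 0.12 to 0.41 between the untreated groups, every pair above 0.1, so these numbers were taken to pair the samples. Between the PGE2 groups they were 0.05 to 0.29, with 2 of 4 above 0.1, and between unstimulated PGE2 and stimulated untreated samples 0.063 to 0.36, with 3 of 4 above 0.1.

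The members, roles and the list of other genes were chosen with earlier results of these data known. Values in every sample are given for the 4 largest changes called in each comparison, the 3 largest estimates where none was called, and the ends of the interaction. The members with the largest and smallest change of each role and the 3 highest and lowest FPKM means are named. Further members were named after their values were seen. Start-site windows and sequences are from RefSeq (GRCm38.p6). Gene positions, also those of Gm45736 and the snoRNA genes, are from the deposited count table. The spans of the members were the same in GENCODE M21, apart from Wdr43 and Rrp12. Exon overlaps with genes on the opposite strand are from GENCODE M21.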

Additional observations from a re-analysis of the deposited data

Results flagged for a closer look

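The level of 8 members had 1 sample far from the other 3 of its group (Dixon's criterion). Chance alone gives this in about 1 in 20 groups, and 220 groups were examined. In unstimulated untreated replicate 4, Npm1 was at 1517 CPM, against 1225 to 1267 CPM in the others. Unstimulated untreated replicate 3 was the low sample for Utp4 (55.4 against 63.8 to 64.7 CPM), Wdr43 (121 against 140.2 to 142 CPM), Noc3l (29.8 against 36.6 to 37.6 CPM) and Nop16 (34.01 against 41.5 to 43.004 CPM). In unstimulated PGE2 replicate 1, Imp3 was at 45.8 CPM (39.9 to 40.4 CPM in the others), and in unstimulated PGE2 replicate 4, Noc4l was at 60.2 CPM (47.99 to 49.8 CPM) and Polr1c at 61.8 CPM (54.2 to 55.3 CPM).

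The PGE2 effect differed between stimulated and unstimulated cells in 6 members by the interaction term of the edgeR fit. The difference on the log2 scale was 1.44 for Polr1b, 1.30 for Gnl3, 1.08 for Dkc1, 0.98 for Nop58, 0.97 for Polr1a and 0.88 for Rrp1b. Not all of these calls were stable. Polr1b and Gnl3 passed in all 21 alternative settings, Dkc1 in 13, Polr1a in 9, Rrp1b in 7 and Nop58 in 6.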

How the results depend on the processing

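Apart from the 2-fold threshold, the counts in unstimulated cells and on stimulation stayed close to those reported, the lowest being 52 members lower with PGE2 in unstimulated cells in 1 fit of all samples. Leaving out single samples gave 53 to 54 members lower with PGE2 in unstimulated cells (88 to 98 of the other ribosome biogenesis genes), and 55 members higher on stimulation without and with PGE2 in every case (115 to 117 and 114 to 117 others). With the 2-fold threshold, PGE2 in unstimulated cells lowered 23 members and 16 others. Upper-quartile factors shifted the median of all genes on stimulation to about -0.13, with all 55 members still higher.

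In stimulated cells the count of members lower with PGE2, 0 as reported, was 1 without the filter, 2 with DESeq2, 3 in 1 fit of all samples and 0 to 6 with single samples left out (6 without stimulated PGE2 replicate 1). Of the others, 1 was lower without the filter, 4 with DESeq2, 8 in 1 fit of all samples and 0 to 4 with single samples left out. Over all genes 3.80% were lower as reported, 7.01% with DESeq2 and 20.7% with the replicate block. The share is not given for the other settings. The replicate block, with numbers that pair the samples here, gave 54 members and 106 others. It changed no call of a member in the other pairwise comparisons.

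For the interaction, 6 members as reported became 3 with RLE factors, 10 with upper-quartile factors, 17 without the filter, 17 with DESeq2, 3 with a size of at least 1 and 2 to 22 with single samples left out. Of the others, 1 became 3 without the filter, 4 with DESeq2, 0 with a size of at least 1 and 0 to 12 with single samples left out. The replicate block gave 20 members and 18 others, although the numbers met the pairing criterion neither between the PGE2 groups nor between unstimulated PGE2 and stimulated untreated samples. The causes were not tested. Over all genes the share past the threshold was 0.517% as reported, 0.152% with a size of at least 1 and 1.79% with the block. It is not given for the other settings, so a gain there cannot be told from a more liberal test. A set of 294 values under alternatives covers only the members with the largest changes or estimates in each comparison and the ends of the interaction. Of these 294 values, 278 kept their side of the threshold and 8 came to pass it. In 8 of them the sign turned, all of interactions near 0 with 1 sample left out, where Polr1c ranged from -0.16 to 0.024 and Nop9 from -0.096 to 0.070. Outside this set some calls were lost, as for Npm1 with PGE2 in unstimulated cells, which passed in 7 of 14 settings. Signs turned there too, as for the PGE2 effect on Polr1c in unstimulated cells, which kept its sign in 10 of 14.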
